A study of Mus musculus with 10 samples.

Results

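Expression of 10 genes of NAD and NADP metabolism (Nampt, Nmnat1, Nmnat3, Nadsyn1, Nadk, Nadk2, Nnt, Nnmt, Cd38 and Parp1) was followed in interscapular brown fat (iBAT) of Control and AdCKO mice. The genes were chosen by symbol for their known roles in making, converting or using up these cofactors, with earlier results of these data known. They are 10 of the 15075 genes in the table. All 10 were among the 11244 genes tested, those whose mean reached 10 normalized reads per kb in at least 1 of the groups. Polyadenylated RNA was sequenced from 5 Control and 5 AdCKO mice, with 1 library per mouse. AdCKO mice lack exon 4 of Crls1, the cardiolipin synthase, in cells that express Adipoq-Cre. This transgene is driven by the adiponectin promoter, which is active in adipocytes, so the other cells of the depot keep the intact gene. Control mice carry the same floxed Crls1 allele on both chromosomes without Cre, although the labels name their genotype wild-type. Mice of both groups were C57BL/6, 20 weeks old and kept at room temperature. The comparison asks how the transcripts of these enzymes differ once adipocytes lose cardiolipin synthesis.

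NAD carries electrons from fuel oxidation to the respiratory chain, and brown adipocytes, packed with mitochondria, turn over large amounts of it. Most tissues rebuild NAD from nicotinamide by a salvage route. NAMPT makes nicotinamide mononucleotide in the rate-limiting step and NMNAT enzymes convert it to NAD. NAD kinases add a phosphate to give NADP, whose reduced form, NADPH, feeds lipid synthesis and antioxidant systems. PARP1, CD38 and the sirtuins split NAD and release nicotinamide, which NNMT methylates for disposal.

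The values are normalized reads per kb of counted exon, so levels can be set side by side between genes. Crls1 itself, the targeted gene, had 1060 ± 191 in Control and 217 ± 26.4 in AdCKO (mean ± SD, n = 5 each). Its AdCKO values ran from 192.6 to 249.2 and its Control values from 812.8 to 1291. The normalized reads summed to between 7615403 and 8171138 per Control library and between 5419800 and 5843024 per AdCKO library. Sequencing depth before normalization is unknown. Libraries of 1 group correlated at r of 0.985 to 0.995 in Control and 0.957 to 0.989 in AdCKO across genes, and at 0.873 to 0.941 between groups. AdCKO replicates 1, 2 and 4 stood apart by skeletal muscle transcripts: the 6 muscle markers summed to 4945, 19320 and 7471 in them, against 124.7 and 109.0 in AdCKO replicates 3 and 5 and 76.86 to 100.3 in Control. Members and named genes that changed their call with this split, or moved by over 1.5 times, are given with and without these libraries. AdCKO replicate 1 also held the highest summed B lymphocyte markers, 107 against at most 21.98 in any other library.

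The 250 bases before the annotated transcript start are shown for the 5 members with the largest change, since these are the upstream sequences of the transcripts that differ most between the groups. They were read from mm9 at chr12:33504950-33505199 (Nampt, plus strand), chr15:9000759-9001008 (Nadk2, plus strand), chr13:120197819-120198068 (Nnt, minus strand), chr9:48413183-48413432 (Nnmt, minus strand) and chr1:182498856-182499105 (Parp1, plus strand). Each runs 5′ to 3′ along the gene and ends at the base before the start. The starts are those of the RefSeq transcript given for each gene. Against upstream sequences listed for a later build, Nampt had the same bases and Parp1 did not, while Nnmt, Nadk2 and Nnt had no entry. Positions of matches hold for these starts only. Capitals mark matches, on either strand, to the motifs searched.
Nampt: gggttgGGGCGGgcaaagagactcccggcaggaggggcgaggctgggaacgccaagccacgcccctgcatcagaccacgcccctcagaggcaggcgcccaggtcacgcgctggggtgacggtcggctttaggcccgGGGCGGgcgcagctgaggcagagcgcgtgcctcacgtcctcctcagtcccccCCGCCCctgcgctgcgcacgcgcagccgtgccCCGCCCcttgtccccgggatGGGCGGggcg
Nadk2: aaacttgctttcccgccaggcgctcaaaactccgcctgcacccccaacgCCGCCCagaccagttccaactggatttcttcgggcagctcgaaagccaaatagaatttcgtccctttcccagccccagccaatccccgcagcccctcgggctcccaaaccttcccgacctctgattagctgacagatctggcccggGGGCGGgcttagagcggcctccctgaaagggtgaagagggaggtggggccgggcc
Nnt: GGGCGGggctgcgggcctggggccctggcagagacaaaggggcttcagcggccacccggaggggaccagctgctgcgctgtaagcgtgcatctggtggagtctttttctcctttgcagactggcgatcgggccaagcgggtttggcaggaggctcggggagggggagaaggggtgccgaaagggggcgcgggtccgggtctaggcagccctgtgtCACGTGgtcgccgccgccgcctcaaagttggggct
Nnmt: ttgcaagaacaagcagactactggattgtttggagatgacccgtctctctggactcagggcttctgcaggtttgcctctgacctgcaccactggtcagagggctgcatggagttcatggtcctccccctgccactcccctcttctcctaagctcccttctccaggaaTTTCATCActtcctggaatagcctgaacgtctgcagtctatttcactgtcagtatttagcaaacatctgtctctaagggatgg
Parp1: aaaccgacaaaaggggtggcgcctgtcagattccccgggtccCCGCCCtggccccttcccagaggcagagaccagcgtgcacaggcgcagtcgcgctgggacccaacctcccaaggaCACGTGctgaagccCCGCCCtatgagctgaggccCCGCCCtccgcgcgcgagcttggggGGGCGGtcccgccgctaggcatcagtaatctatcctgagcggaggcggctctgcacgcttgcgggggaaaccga

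The motifs searched were the GC box GGGCGG, the E-box CACGTG, the cAMP response element TGACGTCA, the C/EBP-ATF response element TGATGNAA, the ERR element AAGGTCA and the TATA box TATAAA. The GC box lay in 7 of the 10 members' windows and in 60.8% of the 11242 windows of tested genes. Nampt held 5 GC boxes, 75.6% G and C, and Parp1 held 4. Nnmt, at 51.2% G and C, had none, and was the 1 member with the C/EBP-ATF element, at bases −83 to −76, which 1.9% of all windows hold. An E-box lay in Nnt and in Parp1, as in 8.5% of all windows. No cAMP response element (2.8% of windows), ERR element (2.6%) or TATA box (6.4%) was found in any member's window. The median window was 60.4% G and C. No match in a member's window overlapped another. These matches describe letters, and binding was not measured.

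Of the 10 members, 5 fell in AdCKO (Nampt, Nadk2, Parp1, Nadk and Nadsyn1), 2 rose (Nnmt and Nnt) and 3 did not pass the test (Nmnat1, Nmnat3 and Cd38), by limma on log2(value + 1) at an adjusted p under 0.01. Calls were frequent in this comparison: 53.6% of all tested genes were called, 25.6% higher and 28.0% lower in AdCKO, so that 7 of 10 is to be read against a high background. The same 7 members had no overlap between the groups, against 50.9% of all tested genes (24.5% higher, 26.4% lower). The median log2 fold change was −0.32 over the members and −0.01 over all tested genes. A fall of at least 1 on the log2 scale, seen in Nampt and Nadk2, was called in 6.16% of tested genes, and a rise of at least 1, seen in Nnmt and Nnt, in 10.3%. In bulk tissue, fewer cells of a type and less RNA per cell cannot be told apart. The 8 adipocyte markers summed to 213600 to 243300 in Control and 133300 to 158100 in AdCKO, and 6 of the 8 were called lower. With the same total in every mouse's library, 3 adipocyte markers were called lower and 1 higher, and after quantile normalization 1 was called lower. All 9 macrophage markers were called higher, their sums running from 438.8 to 1221 in Control mice and from 5935 to 8061 in AdCKO mice. Of these markers, Itgam and Fcgr1 passed the minimum through AdCKO alone. Of the 5 fibroblast and mural markers, 4 were called higher, with sums of 844.4 to 1071 and 3170 to 4343. Endothelial markers summed to 1241 to 1584 and 1257 to 1741, with 1 of 5 called, higher. T and NK lymphocyte markers ran from 26.4 to 45.03 and from 34.89 to 123.1, with 1 of 3 tested called higher, a call lost when any of several single libraries was left out. B lymphocyte markers summed to 16.69 to 19.28 and 15.69 to 107, with 2 tested and not called. These 2, Cd79a and Cd79b, passed the minimum through AdCKO alone, as did Cd3e and Cd3g among the T and NK markers. AdCKO replicate 1 had 53.9 for Cd79a and 35.67 for Cd79b, and no other AdCKO mouse reached 10 for either. The part of these cell types in the members' differences was not tested.

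**Figure D1:**
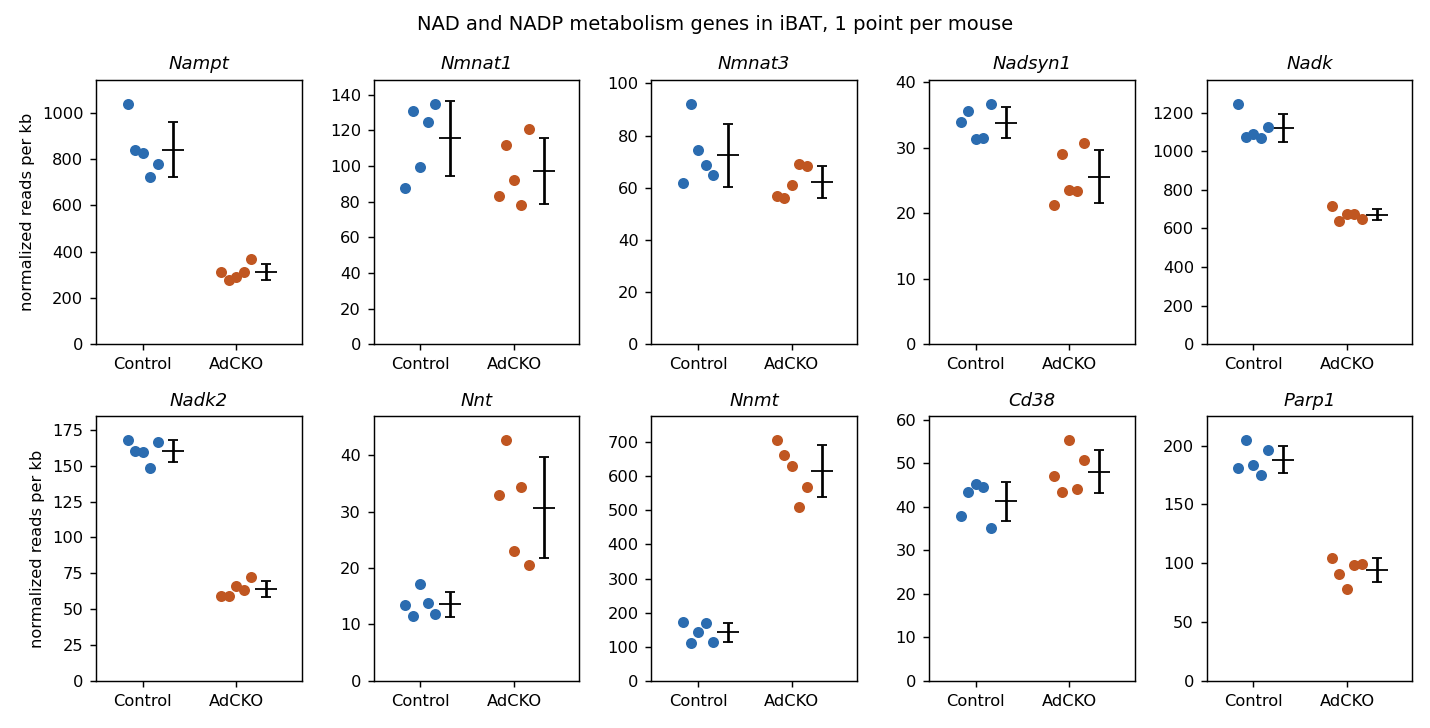
Normalized reads per kb (y axis, from 0) of each of the 10 genes in 5 Control (blue) and 5 AdCKO (orange) mice, 1 point per mouse, with black marks for mean ± SD. Nampt, Nadk, Nadk2 and Parp1 lie lower in every AdCKO mouse and Nnmt and Nnt higher, while the points of Nmnat1, Nmnat3 and Cd38 overlap.

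The plot of single mice shows how far the groups stand apart for each gene, and the salvage enzyme Nampt is described first. Nampt (NM_021524) spans chr12:33505200-33538234 on the plus strand, and its counted 4547 bases equal the exon bases of an annotated transcript of 11 exons. Control replicates 1 to 5 had 1039, 841, 827, 721 and 777 normalized reads per kb, and AdCKO replicates 1 to 5 had 313.5, 278, 289, 310.2 and 369.9. The highest AdCKO mouse, at 369.9, lay far below the lowest Control mouse, at 721. The mean fell from 841 ± 120.1 to 312 ± 35.5, which is 37.1% of Control (log2 fold change −1.42, SE 0.10, limma adjusted p = 2.65e-07). Permuting the labels of these values (exact, two-sided) gave p = 0.0079, the smallest that 5 mice against 5 allow, and so it did for each of the 7 members without overlap. Nampt was above 96.2% of all genes in Control and above 90.0% in AdCKO.

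NMNAT enzymes join nicotinamide mononucleotide to an adenylate to complete NAD, NMNAT1 in the nucleus and NMNAT3 in mitochondria. Nmnat1 (NM_133435, chr4:148842896-148859251, minus strand) had 87.6, 131, 99.3, 125 and 135 in Control and 83.2, 112, 92.1, 78.0 and 121 in AdCKO. Nmnat3 (NM_144533, chr9:98197002-98311847, plus strand) had 61.8, 92.2, 74.5, 68.8 and 64.7 in Control and 56.8, 56.0, 61.1, 69.3 and 68.2 in AdCKO. Both pairs of groups overlapped. The log2 fold change of Nmnat1 was −0.25 with a 95% interval from −0.57 to 0.07 (limma adjusted p = 0.159), and that of Nmnat3 was −0.21 with an interval from −0.44 to 0.03 (limma adjusted p = 0.117). Neither interval reaches the size seen for Nampt, and neither shows that the genes did not differ. Exact two-sided permutation tests gave p = 0.1905 for Nmnat1 and 0.1032 for Nmnat3. Without AdCKO replicates 1, 2 and 4, Nmnat1 was at −0.11 (limma adjusted p = 0.634), and without replicates 3 and 5 at −0.34 (limma adjusted p = 0.0902). With every library set to the same total, their log2 fold changes turned to 0.23 and 0.27, which are 0.23 and 0.19 below the median of all genes under that scaling.

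NADSYN1 completes NAD in the routes that start from tryptophan or nicotinic acid. Nadsyn1 (NM_030221, chr7:150981499-151008746, minus strand) had 34.0, 35.6, 31.4, 31.5 and 36.7 in Control and 21.3, 29.0, 23.6, 23.4 and 30.7 in AdCKO. The groups did not overlap, but the highest AdCKO mouse, at 30.7, came close to the lowest Control mouse, at 31.4. The mean was 33.8 ± 2.38 in Control and 25.6 ± 4.05 in AdCKO, 75.7% of Control (log2 fold change −0.40, SE 0.11, limma adjusted p = 0.00526). This call was lost when any 1 of 6 libraries was left out (Control replicates 1, 2 or 5, AdCKO replicates 1, 3 or 4), with limma adjusted p from 0.0115 to 0.0154. It was also lost without AdCKO replicates 1, 2 and 4 (log2 fold change −0.32, limma adjusted p = 0.0686). Scaled to the same total, its log2 fold change was 0.07, which is 0.39 below the median of all genes.

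Cytosolic and mitochondrial NAD kinases supply NADP to their compartments. Nadk (NM_138671, chr4:154936501-154965110, plus strand), the cytosolic kinase, had 1246, 1074, 1089, 1068 and 1127 in Control and 718, 641, 673, 674 and 651 in AdCKO. It was the most abundant member in both groups, and the groups were far apart relative to their narrow spread. The mean fell from 1121 ± 73.6 to 672 ± 29.9, 59.9% of Control (log2 fold change −0.74, SE 0.07, limma adjusted p = 1.18e-06).

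Nadk2 (NM_001286255, chr15:9001009-9040253, plus strand), the mitochondrial kinase, fell further. It had 168, 160.0, 159, 148 and 167 in Control and 58.9, 59.0, 65.9, 63.3 and 72.4 in AdCKO, with no overlap. The mean went from 160.3 ± 7.78 to 63.9 ± 5.61, 39.8% of Control (log2 fold change −1.32, SE 0.07, limma adjusted p = 3.07e-08), the smallest p among the members. Its place among all genes went from above 80.1% of them in Control to above 60.2% in AdCKO. The log2 ratio of Nadk2 to Nadk within a library went from −2.80 ± 0.06 to −3.38 ± 0.16, a difference of −0.58 (SE 0.08). That ratio did not overlap between the groups (exact two-sided permutation p = 0.0079, 0.0106 after Benjamini-Hochberg adjustment over the 4 ratios tested, which passes the threshold of 0.05 used for ratios and not 0.01). Scaling a library as a whole changes such a ratio through the pseudocount alone.

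NNT, in the inner mitochondrial membrane, uses the proton gradient to pass electrons from NADH to NADP. Nnt (NM_008710, chr13:120123124-120197818, minus strand) had 13.5, 11.5, 17.2, 13.7 and 11.9 in Control and 32.9, 42.6, 23.0, 34.3 and 20.5 in AdCKO. Every AdCKO mouse lay above every Control mouse, and the AdCKO values were the most scattered of any member, with a coefficient of variation of 29.2%. The mean rose from 13.5 ± 2.25 to 30.7 ± 8.96, 226.4% of Control (log2 fold change 1.09, SE 0.18, limma adjusted p = 0.000229). The order of the AdCKO mice followed their skeletal muscle markers: replicates 1, 2 and 4, with the muscle transcripts, had the 3 highest Nnt values. Without those 3 libraries the difference was 0.66 on the log2 scale (SE 0.16, limma adjusted p = 0.00519), and without replicates 3 and 5 in their place it was 1.37 (SE 0.14, limma adjusted p = 9.52e-06). The rise was thus called in both subsets, and the difference between the subsets was not tested. The C57BL/6J substrain is known to carry a deletion within Nnt. The labels give the strain as C57BL/6 only, the study lists its Adipoq-Cre line on a mixed B6;FVB background, and AdCKO mice alone carry Cre. A strain difference at Nnt and the loss of Crls1 cannot be told apart here, since 1 value per gene does not separate the exons.

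**Figure D2:**
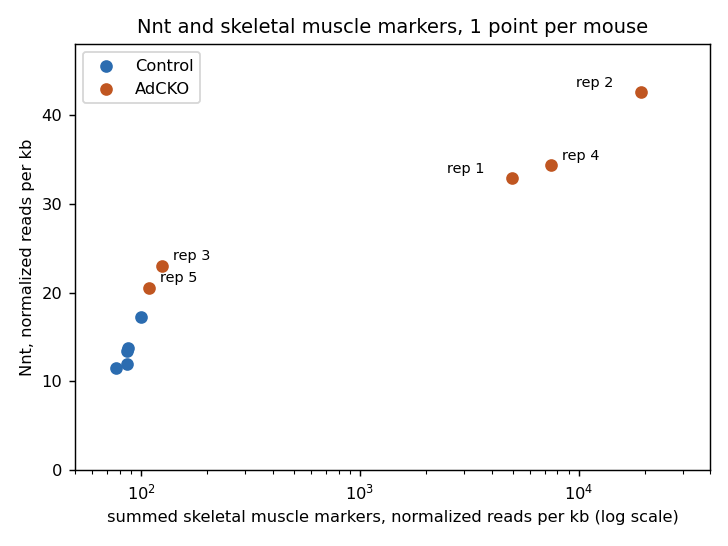
Nnt in normalized reads per kb (y axis, from 0) against the sum of 6 skeletal muscle markers in normalized reads per kb (x axis, log scale), 1 point per mouse. AdCKO replicates 1, 2 and 4 lie to the right, with Nnt from 32.9 to 42.6, and AdCKO replicates 3 and 5 lie beside the Control mice on the x axis, with Nnt of 23.0 and 20.5 above the Control maximum of 17.2.

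NNMT transfers a methyl group from S-adenosylmethionine to nicotinamide, which takes nicotinamide away from the salvage route. Nnmt (NM_010924, chr9:48399995-48413182, minus strand) had 172, 112, 144, 169 and 114 in Control and 705, 663, 629, 510.3 and 569.7 in AdCKO. The lowest AdCKO mouse stood well above the highest Control mouse. The mean rose from 142 ± 28.7 to 615 ± 76.9, 433.1% of Control (log2 fold change 2.12, SE 0.14, limma adjusted p = 9.72e-08), the largest change of any member in either direction. Nnmt moved from above 77.9% of all genes in Control to above 95.3% in AdCKO.

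The opposite changes of Nnmt and Nampt changed their order in the tissue. The log2 ratio of Nnmt to Nampt within a library was −2.59, −2.90, −2.52, −2.09 and −2.76 in Control and 1.17, 1.25, 1.12, 0.72 and 0.62 in AdCKO. Nampt thus exceeded Nnmt in every Control mouse, and Nnmt exceeded Nampt in every AdCKO mouse. The mean ratio went from −2.57 ± 0.31 to 0.97 ± 0.29, a difference of 3.54 (SE 0.19, exact two-sided permutation p = 0.0079, adjusted 0.0106). Since Nnmt and Nampt each separated the groups, in opposite directions, their ratio had to separate too, and its p adds nothing to theirs. The ratio of Nampt to Nadsyn1 went from 4.59 ± 0.20 to 3.56 ± 0.22, a difference of −1.02 (SE 0.14, exact two-sided permutation p = 0.0079, adjusted 0.0106), without overlap. The ratio of Nmnat3 to Nmnat1 was −0.66 ± 0.27 and −0.62 ± 0.31, a difference of 0.04 (SE 0.18) that was within the spread of the mice (exact two-sided permutation p = 0.8413), and its sign turned without 1 of 3 single libraries.

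**Figure D3:**
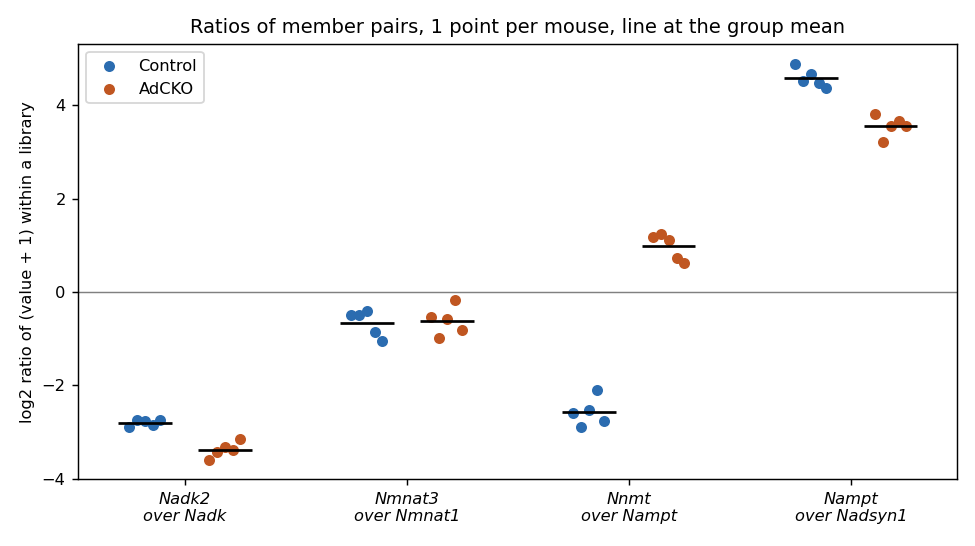
Log2 ratio of (value + 1) of 4 pairs of members within each library (y axis), for 5 Control (blue) and 5 AdCKO (orange) mice, with a line at each group mean and a grey line at 0, where both members are equal. Nnmt over Nampt crosses 0 between the groups, Nadk2 over Nadk and Nampt over Nadsyn1 are lower in AdCKO, and Nmnat3 over Nmnat1 overlaps.

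CD38 and PARP1 use NAD as a substrate, CD38 as a glycohydrolase on the surface of immune and other cells and PARP1 to build poly(ADP-ribose) at DNA breaks. Cd38 (NM_007646, chr5:44260066-44303613, plus strand) had 37.9, 43.4, 45.1, 44.6 and 35.2 in Control and 47.0, 43.3, 55.2, 44.0 and 50.8 in AdCKO. The groups overlapped, with AdCKO replicates 2 and 4 inside the Control range, and the muscle-bearing replicates 1, 2 and 4 were the 3 lowest of AdCKO. Its log2 fold change was 0.22 with a 95% interval from 0.01 to 0.42 (limma adjusted p = 0.0608, exact two-sided permutation p = 0.0714), in libraries where all 9 macrophage markers rose. Without those 3 libraries its log2 fold change was 0.36 (limma adjusted p = 0.0383), and without replicates 3 and 5 in their place it was 0.12 (limma adjusted p = 0.325). Among the alternatives tried, it passed the 0.01 threshold only when every library was set to the same total (0.69, limma adjusted p = 5.86e-05), a scaling that raised the median of all genes to 0.46.

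Parp1 (NM_007415, chr1:182499106-182531385, plus strand) had 181, 204, 183, 175 and 196 in Control and 105, 90.9, 78.2, 98.6 and 98.9 in AdCKO. All AdCKO values lay far below the lowest Control value. The mean fell from 188 ± 11.8 to 94.3 ± 10.2, 50.1% of Control (log2 fold change −0.99, SE 0.08, limma adjusted p = 7.14e-07).

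The scaling of the libraries bears on the smaller differences. Setting every library to the same total took the tested genes' median log2 fold change from −0.01 to 0.46 and the split of calls from 47.7% higher and 52.3% lower to 86.1% and 13.9%. Quantile normalization moved the median to −0.09 and the split to 41.3% and 58.7%. Relative to the median, Nampt stood at −1.40 and −1.13 under these scalings, Nadk2 at −1.30 and −1.24, Parp1 at −0.98 and −0.87, Nadk at −0.72 and −0.39, Nnt at 1.08 and 0.87, and Nnmt at 2.14 and 2.33. These 6 members kept their direction and their call under every alternative tried, with log2 fold changes from −1.49 to −0.94 for Nampt, −1.39 to −0.84 for Nadk2, −1.08 to −0.52 for Parp1, −0.76 to −0.26 for Nadk, 0.66 to 1.54 for Nnt and 2.04 to 2.60 for Nnmt. The smallest differences of Nampt, Nadk2, Parp1 and Nadk came with the same total, where Nadk had a limma adjusted p of 0.00603.

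**Figure D4:**
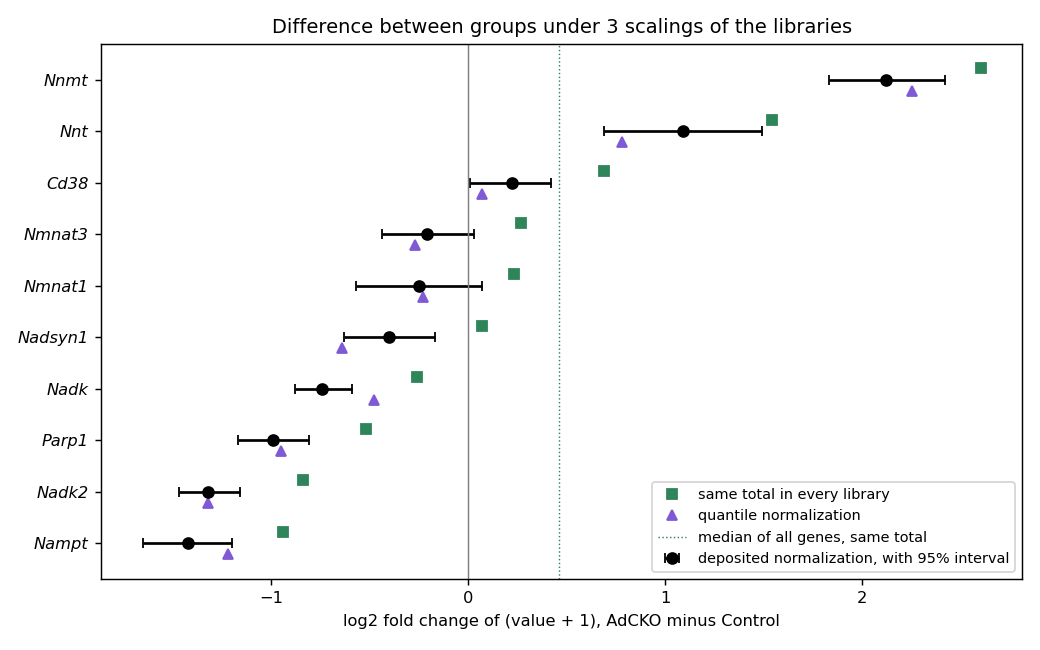
Log2 fold change of (value + 1), AdCKO minus Control (x axis), of each of the 10 members (y axis), with black points and 95% intervals for the deposited normalization, green squares for the same total in every library and purple triangles for quantile normalization. The dotted line at 0.46 is the median of all genes with the same total. Nampt, Nadk2, Parp1 and Nadk stay below 0 and Nnt and Nnmt above 0 under all 3, while Nmnat1, Nmnat3 and Nadsyn1 cross 0 with the same total.

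Ranked by level in Control, Nadk (1121) and Nampt (841) came first, followed by Parp1, Nadk2, Nnmt, Nmnat1, Nmnat3, Cd38, Nadsyn1 and Nnt (13.5). The adjacent pairs Nadk2 and Nnmt, Nnmt and Nmnat1, Nmnat1 and Nmnat3, and Cd38 and Nadsyn1 overlapped in their ranges, although Nmnat1 exceeded Nmnat3 in 5 of 5 libraries. Genes farther apart in this order, such as Nadk2 and Nmnat1, did not overlap. In AdCKO, Nadk (672) and Nnmt (615) led, with overlapping ranges and Nadk higher in 4 of 5 libraries. Nampt came next, then Nmnat1 with Parp1, Nadk2 with Nmnat3, Cd38, and Nnt with Nadsyn1, each of these pairs overlapping.

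The genes most like Nampt across the 10 libraries, by the root mean square difference of centred log2 values over 11244 genes, were Ccbl2 (0.108), Ganc (0.115) and Nrg4 (0.117). Ccbl2 had means of 173 in Control and 64.5 in AdCKO, and Nrg4, a secreted factor of brown fat, had 821 and 311. Nadk2 ranked 11 among the genes most like Nampt, at 0.131, while Nampt ranked 67 among those most like Nadk2. Those most like Nadk2 were Dlat (0.044), a subunit of the pyruvate dehydrogenase complex, Aldh9a1 (0.067) and Acad8 (0.069). Dlat had means of 2198 and 859. This likeness is a description that rests largely on the difference between the groups.

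Of the other genes of these pathways, 7 lists with 76 genes were read from the same fit, and 60 were tested: 12 were called higher and 34 lower, beside 25.6% higher and 28.0% lower over all tested genes. Scaled to the same total, the libraries gave 21 higher and 20 lower. Within NAD synthesis, 5 of 14 listed genes were tested, with 1 called higher and 2 lower, a share near the 53.6% called over all tested genes. With the same total, 2 were called higher and 1 lower. Naprt, which starts NAD synthesis from nicotinic acid, went from 114 ± 7.14 to 47.8 ± 3.02 (log2 fold change −1.24, limma adjusted p = 3.45e-08). Nmrk1, a nicotinamide riboside kinase, fell by 0.82 on the log2 scale (limma adjusted p = 1.8e-05) and lost its call with the same total (−0.35, limma adjusted p = 0.0101). Qprt, the enzyme that links tryptophan breakdown to NAD, rose from a low 7.85 to 18.3 (limma adjusted p = 4.11e-07) and passed the minimum through AdCKO alone. The repair enzymes for damaged NADH and NADPH, Naxe (listed as Apoa1bp) and Naxd (listed as Carkd), had log2 fold changes of −0.89 and −0.67, and both were called.

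Among 15 other NAD consumers tested, 5 were called higher and 4 lower, with a median log2 fold change of −0.06, and 9 of 15 is near the 53.6% called over all tested genes. With the same total, 9 were called higher and 2 lower. The lower ones were Nudt12 (−1.40) and Nudt13 (−1.27), hydrolases of the NUDIX family, with Parp16 (−0.79) and Parp6 (−0.57). Parp6 and Parp16 lost their calls with the same total (−0.09 and −0.31, limma adjusted p = 0.177 and 0.115), and Parp16 also without AdCKO replicates 3 and 5 (limma adjusted p = 0.0133). The higher ones were Parp4 (0.51), Parp8 (1.03), Parp9 (0.93), Parp11 (0.86) and Parp14 (1.30), of which all but Parp8 were chosen for mention after their values were seen. Parp8 passed the minimum through AdCKO alone and was not called after quantile normalization (0.41, limma adjusted p = 0.026). Without AdCKO replicates 1, 2 and 4, Parp8 and Parp14 were still called (limma adjusted p = 0.000495 and 0.00199), and Parp4, Parp9 and Parp11 were not (0.0103, 0.0121 and 0.0218). Of 7 sirtuins, the NAD-dependent deacylases, 5 were called lower and 2 were not called, beside 28.0% of all tested genes called lower. The mitochondrial Sirt5 (−1.35, limma adjusted p = 1.54e-07), Sirt3 (−1.22, limma adjusted p = 1.19e-06) and Sirt4 (−0.62) were among them, with Sirt2 (−0.59). With the same total, 2 sirtuins were called lower and 1 higher, and Sirt4 (−0.15) and Sirt2 (−0.11) lost their calls.

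The genes listed as NADPH-producing dehydrogenases counted 10 lower and 2 higher of 13 tested, beside 28.0% lower and 25.6% higher over all tested genes. Whether each of them, Mthfd2 and Glud1 included, makes NADPH rather than NADH in this tissue was not measured. Me3, a mitochondrial malic enzyme, had means of 104 and 19.5 (log2 fold change −2.45, limma adjusted p = 7.69e-07), and H6pd, of the endoplasmic reticulum, fell by 1.44 on the log2 scale (limma adjusted p = 2.28e-06). The 2 higher genes belong to mitochondrial folate metabolism. Mthfd2 rose from 16.7 ± 1.60 to 190.5 ± 29.2 (log2 fold change 3.43, limma adjusted p = 5.8e-10), and Aldh1l2 rose from 2.55 to 13.1 (1.97, limma adjusted p = 4.06e-07), passing the minimum through AdCKO alone. With the same total, 5 of these dehydrogenases were called lower.

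The list of NADH shuttle, mitochondrial NAD carrier and lactate dehydrogenase genes held 11 tested genes. Of these, 8 were called lower and 3 higher, beside 28.0% lower and 25.6% higher over all tested genes. The 8 include the lactate dehydrogenases Ldha and Ldhb, which belong to no shuttle and were chosen for mention after their values were seen. Gpd1 (−2.04, and −0.95 after quantile normalization) and Gpd2 (−1.87), the enzymes of the glycerol phosphate shuttle, fell. The malate-aspartate shuttle was divided. Its oxoglutarate carrier Slc25a11 (−0.82) and its malate dehydrogenases Mdh1 (−0.54, limma adjusted p = 0.000106) and Mdh2 (−0.85, limma adjusted p = 1.22e-05), both chosen for mention after their values were seen, were called lower. After quantile normalization Mdh1 was at −0.02 and Mdh2 turned to 0.01, and with the same total Mdh1 was at −0.06, none of them called. The transaminases Got1 (117 to 648, log2 fold change 2.45, limma adjusted p = 1.13e-08) and Got2 (1.02) rose. Its carrier Slc25a12 rose from 12.1 to 49.1 (1.81, limma adjusted p = 5.7e-05), and without AdCKO replicates 1, 2 and 4 its log2 fold change was 1.12 (limma adjusted p = 2.37e-05). Quantile normalization left 4 genes of this list called lower, and the same total left 6.

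Among the methyl donor and nicotinamide clearance genes that act beside Nnmt, 1 of 7 tested was called higher and 3 lower, beside 25.6% and 28.0% of all tested genes. With the same total, 4 were called higher and 2 lower. Mat2a, which makes the methyl donor S-adenosylmethionine, rose from 532 to 862 (log2 fold change 0.69, limma adjusted p = 3.97e-05). Adk, which phosphorylates the adenosine left after methyl transfer, fell by 1.51 on the log2 scale (limma adjusted p = 1.47e-07). Aox1, an oxidase that acts on methylated nicotinamide, fell by 1.25 (limma adjusted p = 3.04e-06). Gnmt (−0.71), another methyltransferase, was called lower, passed the minimum through Control alone, and lost its call with the same total (−0.27, limma adjusted p = 0.0232).

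**Figure D5:**
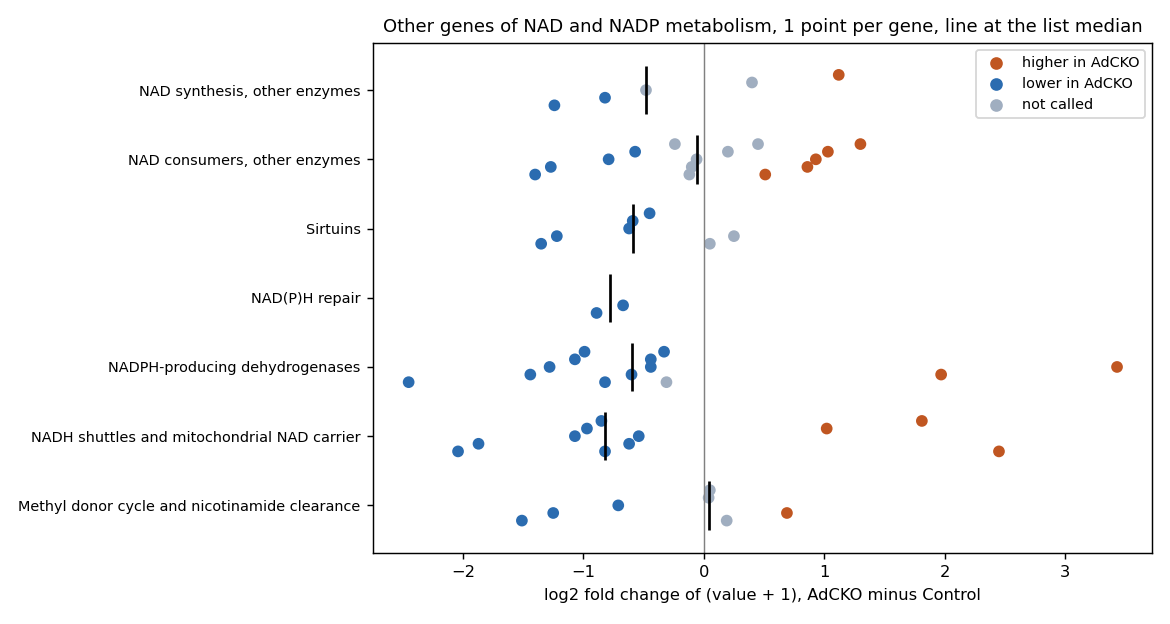
Log2 fold change of (value + 1), AdCKO minus Control (x axis), of the 60 tested genes in 7 lists of NAD and NADP metabolism (y axis), 1 point per gene, orange where called higher, blue where called lower and grey where not called, with a black line at each list's median. The sirtuins, dehydrogenases and shuttle genes lie mostly below 0, with Mthfd2, Got1, Aldh1l2 and Slc25a12 far above it.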

How the data were processed

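RNA from iBAT of 5 Control and 5 AdCKO mice was analysed, grouped by the genotype in the sample labels. The authors mapped reads to mm9 with STAR, made tag directories with HOMER, used iRNA-seq to count reads on exons, and normalized by DESeq2 (versions not given in the sources used here). The authors deposited 1 signal value per gene and library, in normalized reads per kb, for 15075 genes, with 1 RefSeq transcript each, and not counts. The smallest is 0.0532 and none is 0. Low values did not give whole reads: under the best scale, 22.4% to 23.6% per library lay within 0.1 of a whole number, against 20% by chance. Depth is therefore unknown, and the precision given is the spread between mice. The authors' log2 fold changes, adjusted p-values and lists of called genes hold their own comparison and were not used. No column of per-sample values was left without a sample.

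A pseudocount of 1 was added before log2, so fold changes of low genes are understated. Genes with a mean of at least 10 in Control or in AdCKO were tested two-sided by lmFit and eBayes, trend included, of limma 3.58.1 (R 4.3.3), with Benjamini-Hochberg adjustment over 11244 genes and a threshold of 0.01. On simulated data for 10523 genes with 200 changed, the test recovered 184 and called 1 unchanged gene. The planted changes were at least 1 on the log2 scale, with independent noise, and far fewer genes changed than were called here. Smaller differences were not simulated, so the simulation does not give the rate of false calls in these data. Single genes and ratios were compared with exact two-sided permutation tests, the ratios at a threshold of 0.05 after adjustment over the 4. Nothing in the labels names a batch, litter or day.

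The members and lists were chosen with earlier results of these data known. Named genes are the members, Crls1, at most 4 called genes of each list with the smallest p, called genes against their list's direction, and the 3 genes most like Nampt and Nadk2. Pseudocounts of 0.1 and 10, other filters, 2 scalings, no trend, the replicate number as a block, an adjusted p of 0.05 and each library left out were tried. Leaving out AdCKO replicates 3 and 5, or 1, 2 and 4, was added after seeing the data. Windows before the start were read from the mm9 genome (NCBIM37) at the transcript starts in the table, whose coordinates are printed 1-based. Python 3.11.15 and matplotlib 3.10.9 drew the figures.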

Additional observations from a re-analysis of the deposited data

How the results depend on the processing

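Of the 10 members, 6 (Nampt, Nadk, Nadk2, Nnt, Nnmt and Parp1) kept direction and call under all 20 alternatives. The same total in every library gave 6811 genes called higher and 1098 lower in all, 21 and 20 on the pathway lists, and log2 fold changes of 0.23 for Nmnat1 (limma adjusted p = 0.14), 0.27 for Nmnat3 (0.0289), 0.07 for Nadsyn1 (0.533) and 0.69 for Cd38 (5.86e-05). The cause was not tested. With each library left out in turn, Nadsyn1 ran from −0.47 to −0.34 (limma adjusted p from 0.0016 to 0.0154), and without AdCKO replicates 1, 2 and 4 it was −0.32 (0.0686), with fewer samples. The ratio of Nmnat3 to Nmnat1 ran from −0.07 to 0.13, and was −0.01, −0.05 and −0.07 without Control replicate 4, Control replicate 5 and AdCKO replicate 4. Members called higher numbered 2 to 3 and lower 4 to 5. Same-numbered mice did not deviate together (r of −0.07, 0.09, −0.17, −0.27 and 0.10, and 0 of 5 correlated best with their own number), so no pairing by number was seen. With 5 mice per group this cannot exclude a pairing. With the replicate number as a block, 2592 genes were called higher and 2838 lower, and no member's call changed. An exact sign-flip test of the ratios by that block, whose smallest p is 0.0625, gave −0.58 for Nadk2 to Nadk, 3.54 for Nnmt to Nampt and −1.02 for Nampt to Nadsyn1, each at an adjusted p of 0.0833, so this design could not reach the 0.05 used for ratios, which the unblocked tests passed at 0.0106. Sequencing depth is unknown. A pseudocount of 10 gave 0.76 for Nnt in place of 1.09.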
